A study of Mus musculus with 16 samples.

Results

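The distal 3′ UTR peaks are the m6A peaks of mouse peri-infarct cortex that lie far downstream of the stop codon. Each peak was placed by the midpoint of its exonic part on one transcript of the gene it overlaps most on its own strand, the one with the longest coding sequence (GENCODE M39, GRCm39), and it was counted as distal when that midpoint lay in the 3′ UTR more than 1000 nt of spliced transcript past the stop codon. The rule gave 12721 peaks, which were 7.50% of the 169564 listed peaks and 8.67% of the 146723 that could be placed on such a transcript. The data are MeRIP-seq peak lists from the cerebral cortex of sham-operated mice (Sham) and of mice whose middle cerebral artery was occluded for 2 h and then reperfused for 0 h (MCAO/R-0 h), for 6 h (MCAO/R-6 h) or for 24 h (MCAO/R-24 h); the last 3 groups are called 0 h, 6 h and 24 h from here on. In MeRIP-seq, RNA is broken into short fragments, those that carry m6A are pulled down with an antibody (IP), and stretches with more reads in the IP than in the input are called as peaks. Each of the 4 groups had 2 IP libraries, numbered replicate 1 and 2, with 1 list each. The mice were male C57BL/6J, 6 to 8 weeks old at surgery, with 6 in each surgery group, all were anaesthetised with Avertin for surgery, and no transgene enters these groups. Whether animals were pooled in a library is not given in the sources used here, so p-values measure only the spread between these lists, which may be technical.

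m6A is a methyl group on adenosine that is written onto mRNA by the METTL3 and METTL14 complex, most often at a 5-base motif called RRACH, which reads A or G, again A or G, then A, then C, then A, C or T. It is known to be densest around stop codons and at the start of the 3′ UTR, and readers such as the YTHDF proteins bind it there. The far part of a 3′ UTR is where neuronal transcripts often differ in length through alternative polyadenylation, and it holds sites for RNA-binding proteins and miRNAs that act on stability, localisation and translation.

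The sequences below are motif sites inside distal regions, read from GRCm39 and written 5′ to 3′ on the strand of the transcript with T for U. A region is a set of peaks, from any of the 8 lists, joined because they share 1 or more exonic bases on one strand. The capitals mark the RRACH site nearest to the mean centre of the region's peaks, with GGACT, the most favoured form, taken before any other, and 12 bases stand on each side. First come 6 regions that were in all 8 lists at high score ranks.
Rmnd5a, chr6:71368673-71368701, minus strand: taaaccacagacGGACTtgggttaaggga
Purb, chr11:6423529-6423557, minus strand: ccatttgtgaatGGACTgaagtgaacgcg
Cyrib, chr15:63802257-63802285, minus strand: cagccttgtcagGGACTtaatgacaaggt
Usp46, chr5:74161121-74161149, minus strand: taggtgaaaactGGACTccttatttctga
Kcns2, chr15:34842144-34842172, plus strand: cctaacctgtgaGGACTgtttggtttgct
Map9, chr3:82300017-82300045, plus strand: cacggagcagatGGACTcacatacaagac
These 6 were chosen among the 10 highest-ranking recurrent regions because they hold GGACT, and the sites lie between 1194 nt (Cyrib) and 2086 nt (Kcns2) past the stop codon. From the mean centre of the region's peaks they lie at -469 nt (Cyrib), 149 nt (Rmnd5a), 103 nt (Purb), -64 nt (Kcns2), 36 nt (Usp46) and 15 nt (Map9), where negative is upstream. In the other 4 regions (Sel1l, Dcun1d4, Cers4 and Echdc1) the search found RRACH without GGACT.

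The next 5 are the regions of all 8 lists that lay farthest from a stop codon.
Strbp, chr2:37460131-37460159, minus strand: catgtagactttGGACTttccaagtatca
Aak1, chr6:86974352-86974380, plus strand: ttgatccctccaGGACTcatcaatactct
Mkln1, chr6:31493079-31493107, plus strand: cacacggtgcacAGACTtcattgggtgac
Fhip1b, chr7:105020654-105020682, minus strand: ttggcttgaagaAAACAttctcagcacat
Paqr9, chr9:95449754-95449782, plus strand: aacctccagcctGGACTgtaaggtgcctt
The Strbp site lies 13897 nt and the Aak1 site 10086 nt past the stop codon, and those of Mkln1, Fhip1b and Paqr9 lie at 8412, 7310 and 6629 nt.

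The last 3 stand in regions listed in one group of lists and not in another, as described with those comparisons.
Limch1, chr5:67213412-67213440, plus strand: aaagattttaaaAGACAaataaaaaaaaa
Map1b, chr13:99558554-99558582, minus strand: atttaaccagctGAACAccacaccaaaag
Prepl, chr17:85371051-85371079, minus strand: gctgggtcttttGGACCtgtttttaaaaa

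The Sham lists held 1464 and 1438 distal peaks, the 0 h lists 1338 and 1909, the 6 h lists 1588 and 1749, and the 24 h lists 1470 and 1765. Whole lists held between 18775 and 24078 peaks, and the list with the most peaks, 0 h replicate 2, also held the most distal ones. Of the placed peaks of each list, 8.84% and 8.19% were distal in Sham, 7.70% and 9.30% at 0 h, 8.29% and 8.77% at 6 h, and 8.89% and 9.26% at 24 h. The 0 h and 6 h lists overlapped those of Sham, and both 24 h lists lay just above both Sham lists. The difference among the 4 groups did not pass the test (exact permutation test over the 105 divisions of the 8 lists into 4 pairs, one-sided for a larger spread among groups, p = 0.771; Benjamini-Hochberg over 6 measures, adjusted p = 0.771), and the smallest p that this test can give is 0.00952. Taken over 3′ UTR peaks alone, 23.1% to 25.4% were distal (mean 24.8% ± 0.742, SD, n = 8; p = 0.514 in the same exact permutation test). In whole tissue a lower number of cells of one type and less RNA or less m6A per cell cannot be told apart.

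Peak density fell with distance from the stop codon up to 4000 nt in each of the 4 groups, and it was low beyond. Density was counted per kb of spliced sequence over the 7147 genes that had a peak anywhere in the 8 lists and a 3′ UTR over 1000 nt. The first 500 nt past the stop codon held 0.800 ± 0.0688 peaks per kb per list (SD, n = 8), and the next 500 nt held 0.283 ± 0.0320. From 1000 to 1500 nt it was 0.173 ± 0.0219, from 1500 to 2000 nt 0.134 ± 0.0175, and from 2000 to 3000 nt 0.106 ± 0.0134. Between 4000 and 6000 nt the lists held 0.0655 ± 0.0106 peaks per kb, and past 10000 nt, which 47 of the genes reach, 0.0473 ± 0.0120. Across the whole distal part the density was 0.0977 to 0.139 peaks per kb, against 0.492 to 0.628 in the first 1000 nt and 0.481 to 0.585 in the coding sequence of the same genes.

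**Figure D1:**
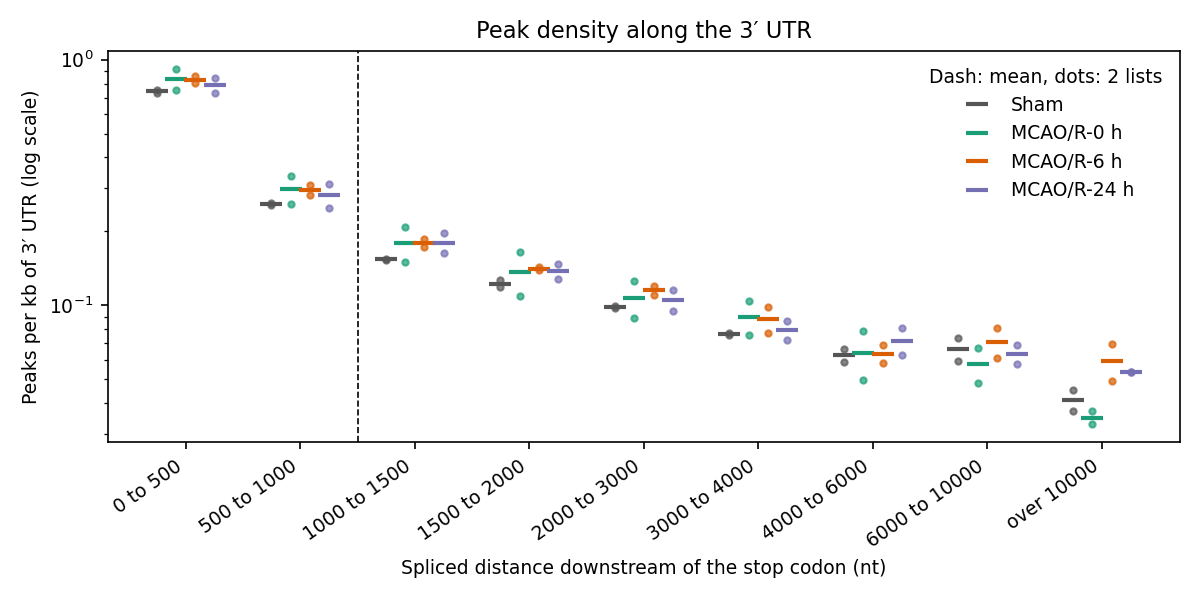
Peaks per kb of 3′ UTR sequence (log scale) in bins of spliced distance past the stop codon, for 7147 genes; dots are the 2 lists of a group, dashes their mean, and the dashed vertical line marks 1000 nt. Density fell from a mean of 0.800 in the first bin to 0.0473 in the last, and the groups overlapped or lay close together in each bin.

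As a log2 ratio, distal against proximal density was -2.21 and -2.27 in Sham, -2.37 and -2.17 at 0 h, -2.23 and -2.19 at 6 h, and -2.20 and -2.17 at 24 h. All 8 lists were below 0 (mean -2.23 ± 0.0677, SD, n = 8; two-sided exact sign-flip permutation test, p = 0.00781, adjusted over 4 measures p = 0.00781, the smallest that 8 lists can give). The difference of this ratio among groups did not pass the test (exact permutation p = 0.733). Without 0 h replicate 2, whose list was the longest, that p was 0.0476. Input reads were not analysed here, and how many RNA molecules carried the far part of each 3′ UTR, and its part in the lower density, was not tested.

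The peaks on either side of the 1000 nt limit are given here without a test. Between 900 and 1000 nt past the stop codon the lists held 1258 peaks with a median score percentile of 45.3, and between 1000 and 1100 nt 1073 peaks with a median of 47.7. The score percentile is the share of the peaks of the same list that score lower, and it is used because the deposited score has no stated scale.

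Within the distal part itself the peaks leaned towards its start. Cut into 4 stretches of equal length on each transcript, the first stretch held 36.4% of the peaks (35.1% to 38.2% over the 8 lists), the second 24.2%, the third 19.8% and the last 19.5%. The last stretch includes positions too near the annotated 3′ end for the midpoint of a whole peak. That lowers its share, and the shares were not corrected for it. The median peak lay between 1280 and 1380 nt from the annotated 3′ end in the different lists.

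The last 200 nt before the annotated 3′ end held 6.33% to 9.12% of the distal peaks. The share of the distal positions of a transcript that lie there, averaged over the distal peaks of a list, was 10.4% to 11.6%. The log2 ratio of the first share to the second was -0.35 and -0.72 in Sham, -0.51 and -0.43 at 0 h, -0.55 and -0.49 at 6 h, and -0.37 and -0.35 at 24 h. Its mean was -0.47 ± 0.127 (SD, n = 8, two-sided exact sign-flip permutation p = 0.00781), and among groups p was 0.571 (exact permutation). Without Sham replicate 1 the mean was -0.49, and Sham was left with replicate 2 alone, the lowest list. The expected share of 10.4% to 11.6% also counts positions too near the end for the midpoint of a whole peak. It is therefore too high, and its p-value does not show that peaks avoid the end. The deficit was lost when even placement was counted only over positions where a whole peak of the same length ends within the transcript, an alternative added after the data were seen. The expected share was then 7.37% to 8.27% and the mean log2 ratio 0.02 ± 0.122 (SD, n = 8; exact sign-flip permutation p = 0.609). By that count the ratios of the 8 lists ran from -0.22 to 0.14 and lay on both sides of 0. In all, 43 of the 12721 peaks had their midpoint within 25 nt of the annotated 3′ end.

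Distal peaks ranked below peaks nearer the stop codon. The median percentile of distal peaks minus that of peaks in the first 1000 nt was -7.20 and -5.52 percentage points in Sham, -6.62 and -9.34 at 0 h, -8.81 and -10.3 at 6 h, and -7.56 and -8.51 at 24 h. It was below 0 in 8 of 8 lists (mean -7.98 ± 1.55, SD, n = 8; two-sided exact sign-flip permutation p = 0.00781). The difference among groups did not pass the test (exact permutation p = 0.267), and both 6 h lists and both 24 h lists lay below both Sham lists. Distal peaks were also shorter, with a list median of 100 to 125 exonic nt against 125 to 150 nt, and the rank moves with length. Among peaks up to 75 nt the mean difference was -0.421 points and lower in 7 of 8 lists, among those over 75 and up to 150 nt -1.65 points, and among those over 150 nt -4.32 points and lower in 8 of 8.

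**Figure D2:**
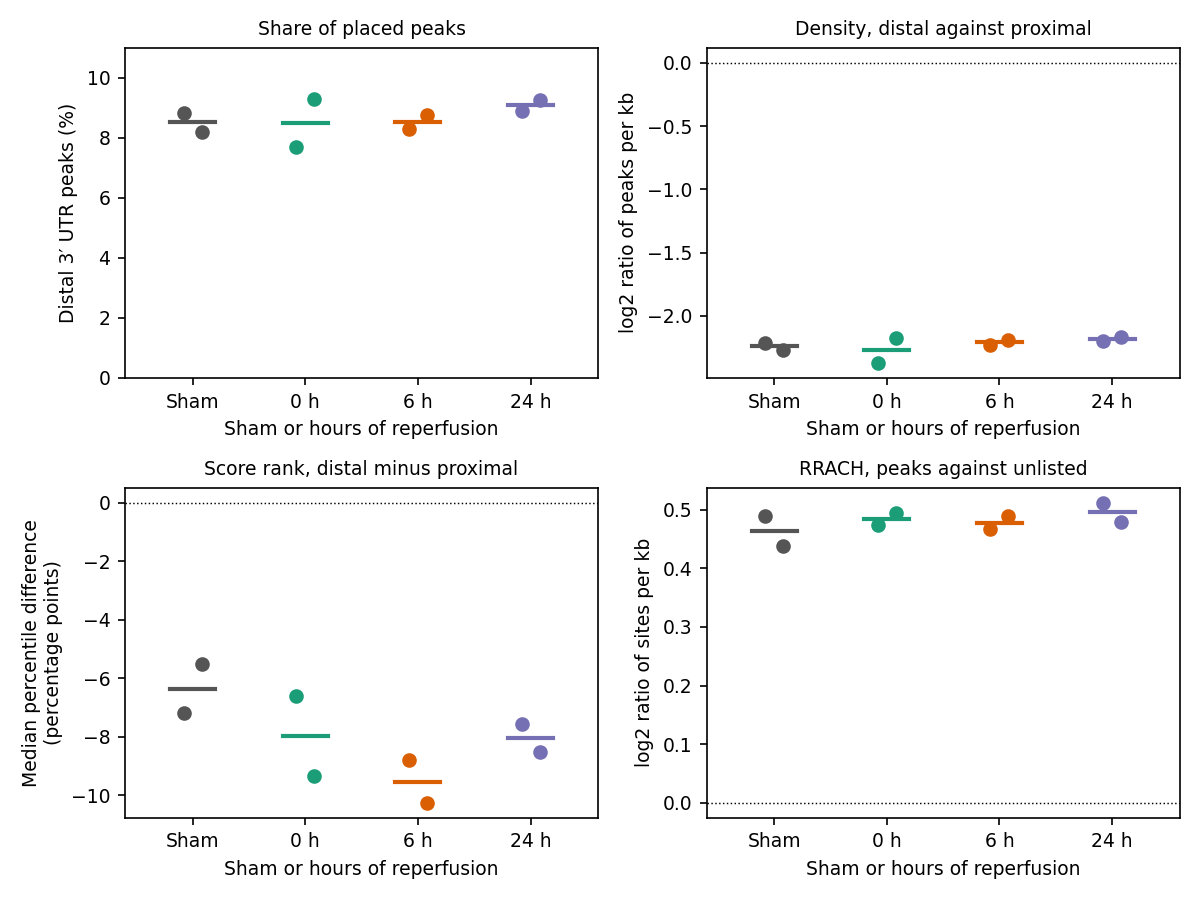
The plot shows 4 measures of distal 3′ UTR peaks in the 8 lists, with 1 dot for each list and a line at the mean of 2: the share of placed peaks (%), the log2 ratio of density against the first 1000 nt, the difference of median score percentile (percentage points) and the log2 ratio of RRACH density. The last 3 measures lay on one side of 0 (dotted) in 8 of 8 lists, and the groups overlapped or lay close together in each panel.

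The sequence of the distal peaks was richer in the m6A motif than the rest of the distal 3′ UTRs of the same genes. Sites were counted on the transcript strand, with overlapping sites counted separately. Distal peaks held 19.1 ± 0.335 RRACH sites per kb (SD, n = 8), the distal sequence of their genes that no list covers 13.7, and peaks in the first 1000 nt 19.6. The log2 ratio of the first to the second was 0.49 and 0.44 in Sham, 0.47 and 0.49 at 0 h, 0.47 and 0.49 at 6 h, and 0.51 and 0.48 at 24 h. It was above 0 in 8 of 8 lists (mean 0.48 ± 0.0223, SD; two-sided exact sign-flip permutation p = 0.00781), and its difference among groups did not pass the test (exact permutation p = 0.667). At least 1 RRACH site stood in 80.5% of the distal peaks, on average over the lists, against 73.2% of windows of the same lengths in uncovered distal sequence.

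For GGACT, of which 9 of the regions printed above give examples, the density was 1.55 per kb in distal peaks, 0.875 in uncovered distal sequence and 1.77 in peaks near the stop codon. It stood in 18.8% of the distal peaks and in 11.6% of windows of the same lengths. The GC content of the distal peaks, 43.8%, was close to the 43.9% of the uncovered distal sequence and below the 45.3% of peaks near the stop codon.

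Other 3′ UTR motifs were counted in the same way, with no test. AUUUA, the core of AU-rich elements that bind stability factors, stood at 1.52 per kb in distal peaks against 1.69 in uncovered distal sequence, with list ratios from 0.838 to 0.937. AAUAAA, the main polyadenylation signal, stood at 0.895 against 0.938, with list ratios from 0.892 to 1.02. UGUANAUA, the site of the Pumilio repressors, stood at 0.171 against 0.237, with list ratios from 0.573 to 0.865. The ratio was below 1 in 8 of 8 lists for AUUUA and UGUANAUA and on both sides of 1 for AAUAAA. UGUANAUA was the rarest, and its density rests on the fewest sites.

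Nearly all of the distal peaks stood in one long exon. The midpoint was in the last exon for 99.6% of them, and that exon had a median length of 4114 nt. Of the distal peaks 8.47% lay past the 3′ end of another annotated transcript of the gene that ends within the 3′ UTR, beside 8.81% of all distal sequence. Midpoints in an exon of a gene on the other strand made up 7.40% (941 peaks), and 1.10% lay in an exon of another gene on the same strand. The sources used here do not say whether peak calling used strand, so the gene of those peaks is uncertain.

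Distal peaks were often not alone on their transcript. In a single list 860 to 1178 genes had a distal peak, with 1.56 to 1.65 such peaks per gene and at most 7 to 10 in 1 gene. Of these genes, 57.8% to 64.5% also had a peak in the first 1000 nt of the 3′ UTR in the same list, and 52.3% to 56.3% had one in the coding sequence. Between 18.1% and 22.0% of them had distal peaks and no other placed peak in that list.

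The share of genes with a distal peak was higher among those with longer 3′ UTRs. Of genes with a 3′ UTR of 1000 to 2000 nt, 17.3% had a distal peak in any list, and of those with 5000 to 10000 nt 53.0% had one. The density over the distal part went the other way, from 0.152 to 0.100 peaks per kb per list over the same classes. The largest number of distal peaks in 1 gene over the 8 lists was 51, in Zfp704 and in Zbed6, which encode zinc finger proteins. Zkscan1 had 50 and Tnr, which encodes the matrix protein tenascin-R, 48. The annotation also holds a few extreme 3′ UTRs, and the farthest distal peak, 111104 nt past the stop codon, belongs to Nopchap1, whose annotated 3′ UTR is 122583 nt long.

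Joined over the 8 lists, the distal peaks formed 4348 of the 52776 regions, in 2130 genes. A region was called distal where most of its peaks were. Of these genes 1099 had 1 distal region, 492 had 2, 452 had 3 to 5, 83 had 6 to 10, and 4 had more. The share of the 7147 genes with a distal region in any list was 29.8%, and the share with one in all 8 lists was 3.89% (278 genes, 299 regions).

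The recurrence of regions over the lists is given as counts, with no test. Over the 8 lists 55.7% of distal regions were in 1 list and 6.88% in all 8, beside 41.6% and 15.2% of regions in the first 1000 nt and 53.1% and 8.98% of coding regions. Within the 3′ UTR the share went down with distance. Peaks that belonged to a region of all 8 lists made up 45.0% of those within 500 nt of the stop codon, 35.2% between 1000 and 1500 nt, 29.5% between 2000 and 3000 nt and 19.4% past 6000 nt. Recurrent peaks were the higher-ranking and longer ones, with a median percentile of 71.3 and a median of 175 nt in distal regions of all 8 lists, against 21.4 and 75 nt in those of 1 list.

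**Figure D3:**
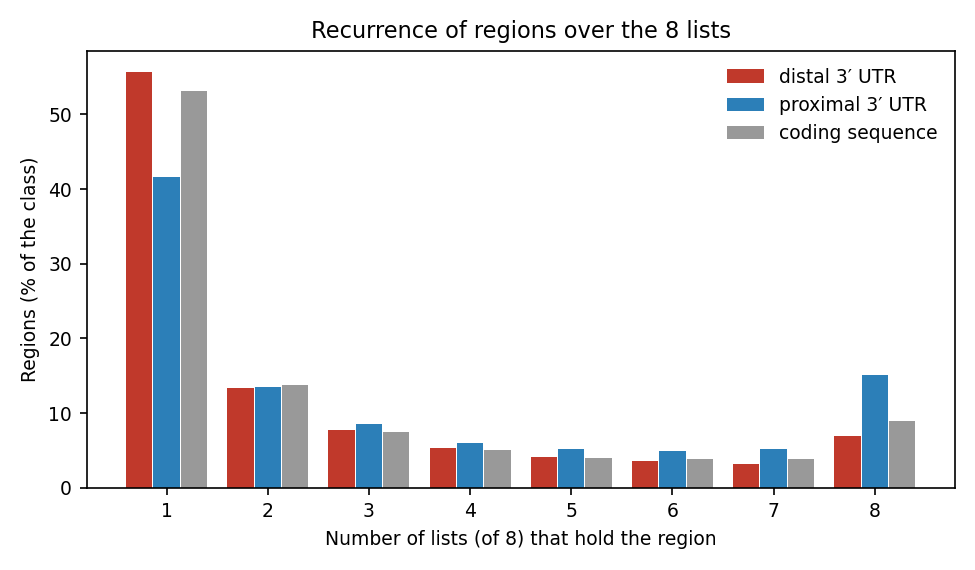
Share of regions (%) found in 1 to 8 lists, for distal 3′ UTR regions (4348), regions in the first 1000 nt of the 3′ UTR (9329) and coding regions (26673). Distal regions were in 1 list in 55.7% of cases and in all 8 in 6.88%, against 41.6% and 15.2% for the first 1000 nt.

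The distal regions shared by 2 lists, as a share of the regions in either (Jaccard index), were about as many between groups as within them. Replicates shared 0.328 in Sham, 0.333 at 0 h, 0.356 at 6 h and 0.317 at 24 h, well below the 0.463 to 0.492 of regions in the first 1000 nt. Coding regions lay between these classes and nearer the distal ones, at 0.358 to 0.390. Pairs of lists from different groups shared a mean of 0.324 ± 0.0135 (SD over 24 pairs), with the lowest mean for Sham with 24 h (0.305, from 0.296 to 0.309) and the highest for 0 h with 6 h (0.342). Replicates exceeded pairs of different groups by 0.00978 (exact permutation over the 105 divisions, one-sided, p = 0.0381). That p is unadjusted, since the excess was not among the 6 measures adjusted together. That difference rested on the 6 h lists: in the same exact permutation test it was 0.00336 (p = 0.295) without replicate 2 of that group and 0.00560 (p = 0.190) without replicate 1, while it was 0.0105 without Sham replicate 2 and 0.0121 without 0 h replicate 2, each with p = 0.0571. It did not pass when distal began at 2000 nt (0.00646, exact permutation p = 0.114) or when joining needed 50% of the shorter peak (0.00781, p = 0.0571). It was larger in the higher-scoring 50% of each list (0.0205, p = 0.0286), with lists cut to equal length (0.0141, p = 0.00952) and with distal from 500 nt (0.0120, p = 0.00952), in the same exact permutation test.

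**Figure D4:**
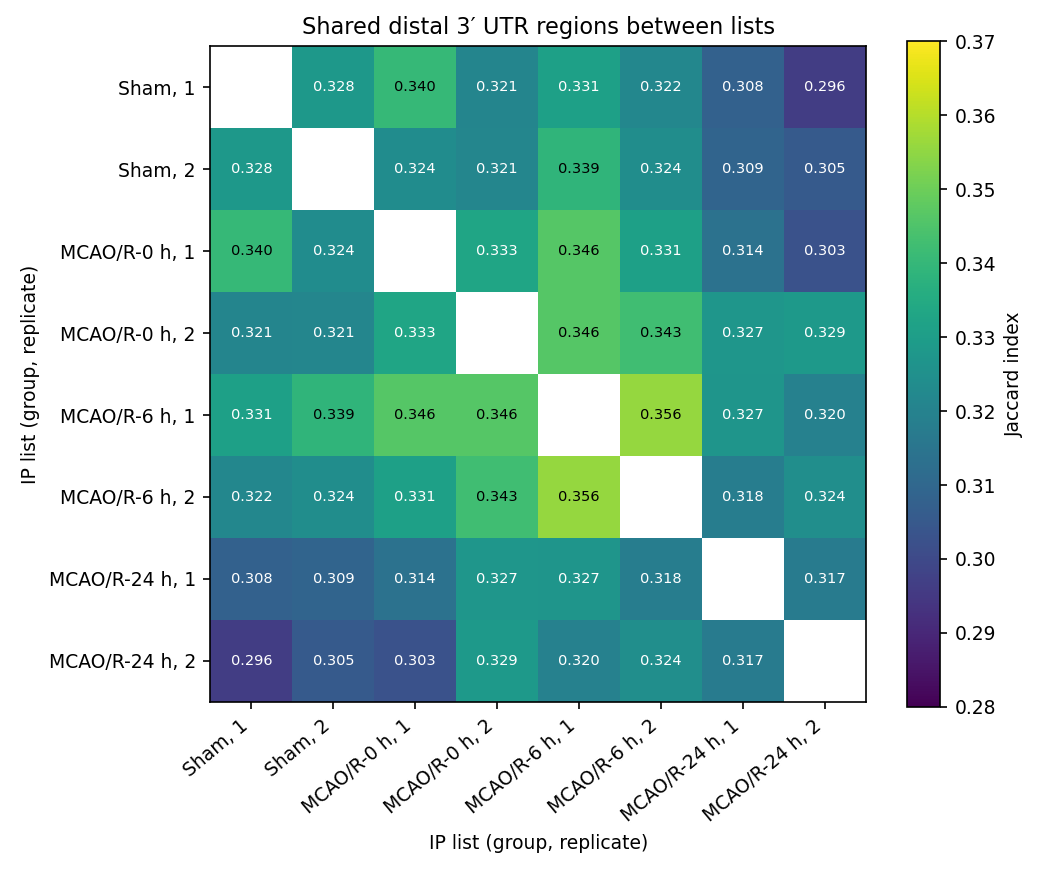
Jaccard index of the distal 3′ UTR regions of each pair of the 8 lists, from 0.296 to 0.356 by colour and number. The 2 6 h lists share the most, and the pairs of Sham with 24 h lie between 0.296 and 0.309.

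The 10 genes with the most distal regions in all 8 lists, ordered by percentile where tied, had 2 each. Among them were Ankrd12, Zcchc14, Cux2, Zbed6, Lgi1, Nlgn3, Dcun1d4, Phf24 and Cdk5r1. Cux2, a transcription factor of upper-layer cortical neurons, had one region (chr5:121996854-121997353, minus strand) centred 1561 nt past the stop codon. Its percentiles were 94.3 and 95.2 in Sham, 92.6 and 94.2 at 0 h, 92.6 and 91.8 at 6 h, and 93.5 and 92.1 at 24 h. All 6 reperfusion lists lay below both Sham lists, by small steps. Its other region, centred at 2231 nt, ranked between 73.7 and 92.1, at 92.1 and 84.4 in Sham, and there the values of each reperfusion group overlapped those of Sham.

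Lgi1, which encodes a secreted synaptic protein linked to epilepsy, had a region at 1332 nt, with percentiles of 93.1 and 93.2 in Sham, 93.0 and 89.5 at 0 h, 82.1 and 89.5 at 6 h and 90.7 and 93.7 at 24 h. Both 0 h lists and both 6 h lists lay below both Sham lists, and the 24 h lists stood on either side of them. Cdk5r1, which encodes the p35 activator of the neuronal kinase Cdk5, had a region at 2098 nt that ranked between 88.8 and 94.2. Nlgn3, a postsynaptic adhesion molecule, had a broad region (850 exonic nt, 17 peaks) at 1390 nt. It ranked 93.6 and 85.1 in Sham, 97.4 and 85.9 at 0 h, 92.8 and 71.0 at 6 h and 96.0 and 88.8 at 24 h, and each group overlapped Sham.

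The recurrent regions with the highest lowest rank over the lists were in Sel1l, Rmnd5a, Purb, Cyrib, Usp46, Kcns2, Map9, Dcun1d4, Cers4 and Echdc1. Sel1l, an adaptor of the ligase that clears misfolded proteins from the endoplasmic reticulum, ranked between 98.2 and 99.6 in a region of 1300 exonic nt (20 peaks) around 1209 nt. Rmnd5a, a subunit of a ubiquitin ligase, ranked 97.7 and 98.1 in Sham, 98.0 and 97.7 at 0 h, 98.2 and 98.6 at 6 h, and 98.5 and 98.8 at 24 h. Both 24 h lists and both 6 h lists of Rmnd5a lay above both Sham lists. Purb, a single-stranded nucleic acid binding protein, ranked between 97.4 and 99.5, and Usp46, a deubiquitinase, between 96.0 and 98.1. Kcns2, a modulatory potassium channel subunit, ranked between 95.8 and 96.8, and Map9, a microtubule-associated protein, between 95.7 and 99.4.

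The most remote recurrent regions, whose sites are printed above, were spread over a wide range of ranks. The Strbp region, in a gene for a double-stranded RNA binding protein, was centred 13876 nt past the stop codon and 286 nt before the annotated 3′ end, and ranked between 70.4 and 86.1. The Aak1 region, in a gene for a kinase of clathrin adaptors, was centred at 10155 nt. Its percentiles were 77.4 and 82.1 in Sham, 30.2 and 95.9 at 0 h, 90.9 and 79.7 at 6 h, and 93.5 and 92.4 at 24 h. Both 24 h lists were above both Sham lists, while the 2 0 h lists stood on either side of them. Mkln1 (8414 nt) ranked between 1.9 and 86.1, Fhip1b (7312 nt) between 67.1 and 92.3, and Paqr9 (6579 nt) between 40.2 and 92.1.

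Gene lists of known function are described by the count of members with a distal region, beside 29.8% of all 7147 genes. Of the glutamate receptors and postsynaptic scaffolds with a peak and a long enough 3′ UTR, 17 of 22 (77.3%) had one, and 2 had one in all 8 lists, Grin2b and Nlgn3. Grin2b, an NMDA receptor subunit, had 6 distal regions, and Gria1, an AMPA receptor subunit, had 5 with a member in 7 lists. Of the transcription factors and chromatin proteins of cortical neurons 17 of 23 (73.9%) had a distal region, and 3 had one in all 8 lists. Bcl11b, which specifies subcortical projection neurons, had 3 distal regions. The median 3′ UTR of these lists was 3070 and 4014 nt, against 2419 nt over all 7147 genes, and 3′ UTR length moves with the count; its part was not tested.

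Of RNAs known to be carried into dendrites 8 of 15 had a distal region (53.3%). Among these, Shank1, Shank3, Grin2a, Grin2b, Dlg4 and Homer1 are also in the list of glutamate receptors and scaffolds. The shares of those lists are therefore not independent. Of the eligible dendritic RNAs outside that list, Arc and Ntrk2 had a distal region, and Map2, Kpnb1, Ddn, Cnksr2, Eef2k and Impa1 had none. Ntrk2, the receptor of BDNF, had 6, of which 1 was in all 8 lists, whereas Bdnf itself, with peaks in 8 lists and a 3′ UTR of 2978 nt, had none. Among RNA-binding proteins that act on 3′ UTRs it was 14 of 33 (42.4%). The splicing regulator Nova2 had 10 distal regions and its relative Nova1 had 2, and each had 1 in all 8 lists. Tnrc6c, a scaffold of miRNA silencing, also had 1 in all 8 lists. Kinase and phosphatase signalling had 8 of 16 (50.0%), with Prkca in all 8 lists.

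The other lists of function had lower shares than these. Genes of ischaemia, cell death and antioxidant defence had 7 of 19 (36.8%), with none in all 8 lists. The m6A writers, erasers and readers had 2 of 9 (22.2%), and the ubiquitin ligases 3 of 17 (17.6%) although their median 3′ UTR was 3234 nt and 18 of 24 had some peak in all 8 lists. Among cell type markers, 2 of 5 eligible neuronal, 3 of 5 astrocyte, 1 of 3 oligodendrocyte, 3 of 3 microglia and leukocyte and 1 of 3 endothelial markers had a distal region. The astrocyte gap junction gene Gja1 had one in all 8 lists. The lists hold peaks and no levels, so a marker without a peak is not shown to be without RNA.

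Trp53, Slc7a11, Gpx4 and the Ythdf readers, which the study follows, had few distal peaks. Trp53 and Gpx4 have 3′ UTRs of 444 and 221 nt and so cannot hold one. Slc7a11, the cystine transporter, has a 3′ UTR of 7364 nt and peaks in 8 lists, but no distal region. Ythdf2 and Ythdf3 likewise had none, and Ythdf1 had 1, in 1 0 h list, 104 nt before its annotated 3′ end. Of genes of the lists above, Cd274 and Pparg had none and the kinase gene Gsk3b had 1 distal region, in 1 6 h and 1 24 h list.

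Regions listed after reperfusion and not in Sham were counted with no test, since 2 lists against 2 allow only 3 splits and an exact p of at least 0.333. The 3 comparisons use the same Sham lists and are not independent. A region was called gained when both lists of the time point held it and neither Sham list did, and lost in the reverse case. At 0 h 113 of 2884 distal regions were gained (3.92%, against 3.84% of all regions) and 59 were lost (2.05%, against 1.87%). At 6 h 137 of 2867 were gained (4.78%, against 4.94%) and 54 were lost (1.88%, against 2.03%). At 24 h 125 of 2952 were gained (4.23%, against 3.79%) and 73 were lost (2.47%, against 2.76%). The shares were near those of all regions at each time and in both directions. The Sham lists held the fewest peaks on average, and when the lists were cut to equal length by score 92 were gained and 67 lost at 0 h, 94 and 64 at 6 h, and 105 and 80 at 24 h. The lower of the 2 percentiles had a median of 26.6 to 31.9 in gained and 31.0 to 45.5 in lost distal regions. The lower of 2 values tends to lie below the middle of a list by its definition. These medians therefore do not show whether the regions were low in rank.

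The gained regions with the highest ranks at 0 h were in Kcna2, Ank3, Ildr2, Add2 and Elavl3. Kcna2, which encodes the Kv1.2 channel, had a region at 2208 nt with percentiles of 91.3 and 94.8 at 0 h and 96.7 in 6 h replicate 1, and it was in no other list. The search found no RRACH site in that Kcna2 region. Ank3 encodes ankyrin-G of the axon initial segment, and its region at 1064 nt ranked 88.5 and 86.6. A Sham peak of Ank3 stood 51 nt away, so absence of that region from the Sham lists is not absence of a peak nearby. The Add2 region (beta-adducin, a cap of the membrane skeleton) at 1318 nt was in all 6 reperfusion lists, at percentiles of 75.0 to 80.2, and the gene had no placed peak in either Sham list. Elavl3, a neuronal RNA-binding protein, had a region at 2424 nt with a Sham peak 101 nt away, and Ildr2 one at 2843 nt.

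At 6 h the leading gained regions were in Limch1, Dhdh, Grpel1, Zbtb7a and Zim1. The Limch1 region, whose site is printed above, ranked 90.4 and 89.1, and it was also in 0 h replicate 1 (79.8) and 24 h replicate 1 (78.4). A Sham peak of Limch1 stood 76 nt away. Dhdh, a dihydrodiol dehydrogenase, had a region at 1165 nt that was in all 6 reperfusion lists, at 47.3 and 57.8 at 0 h, 82.1 and 86.3 at 6 h and 73.9 and 78.3 at 24 h, and neither Sham list had a placed peak in the gene. Zim1, an imprinted zinc finger gene, had a region of 925 nt that was listed at 6 h alone, at 76.9 and 94.5.

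At 24 h they were in Slc14a1, Gbp7, Add2, Dhdh and Ski. Slc14a1, a urea transporter, ranked 83.2 and 90.8, was at 37.3 in 6 h replicate 2, and had no placed peak in Sham. Gbp7, a guanylate-binding protein induced by interferon, was in all 6 reperfusion lists, at 25.3 and 52.9, then 50.2 and 35.9, then 76.6 and 75.7. Both 24 h lists of Gbp7 were above the other 4. Whether more RNA of such genes makes a peak easier to call was not tested.

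Map1b, Aak1 and Creg2 were among the leading lost regions at more than 1 time. Map1b, a microtubule-associated protein of axons, had a region at 3736 nt (site printed above) at 97.3 and 90.9 in Sham and 95.4 in 0 h replicate 2, and in no 6 h or 24 h list. At 6 h another Map1b peak stood 126 nt away, and at 24 h the nearest was 3476 nt away. Its second lost region, at 3503 nt, was at 80.8 and 88.4 in Sham and at 80.8 in 6 h replicate 2, with a 0 h peak 76 nt away and the nearest 24 h peak 3301 nt away. The Aak1 region at 1884 nt (88.5 and 83.7) and the Creg2 region at 3310 nt (75.0 and 78.8) were in the Sham lists alone. Another Creg2 peak stood 426 nt from that region at 0 h and 401 nt from it at 6 h.

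Kcnj10, Celf4, Prepl, Ntrk2 and Arhgap32 held other leading lost regions. The Kcnj10 region (Kir4.1, the main potassium channel of astrocytes) at 1839 nt was missing from both 0 h lists but ranked 79.2 and 80.0 at 6 h and 80.8 and 88.3 at 24 h, beside 82.4 and 86.3 in Sham. A 0 h peak of Kcnj10 stood 351 nt away. Celf4, a neuronal RNA-binding protein, had a region at 1122 nt that ranked 91.0 to 96.6 in both Sham lists, both 0 h lists and 6 h replicate 1, and it was missing from the other 3. Prepl (1047 nt; site printed above) was missing from both 0 h lists and from 6 h replicate 2, at 85.7 and 84.6 in Sham. Ntrk2 (4704 nt; 79.9 and 77.5 in Sham) and Arhgap32 (2656 nt; 71.2 and 76.5) completed the leading lost regions at 6 h.

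**Figure D5:**
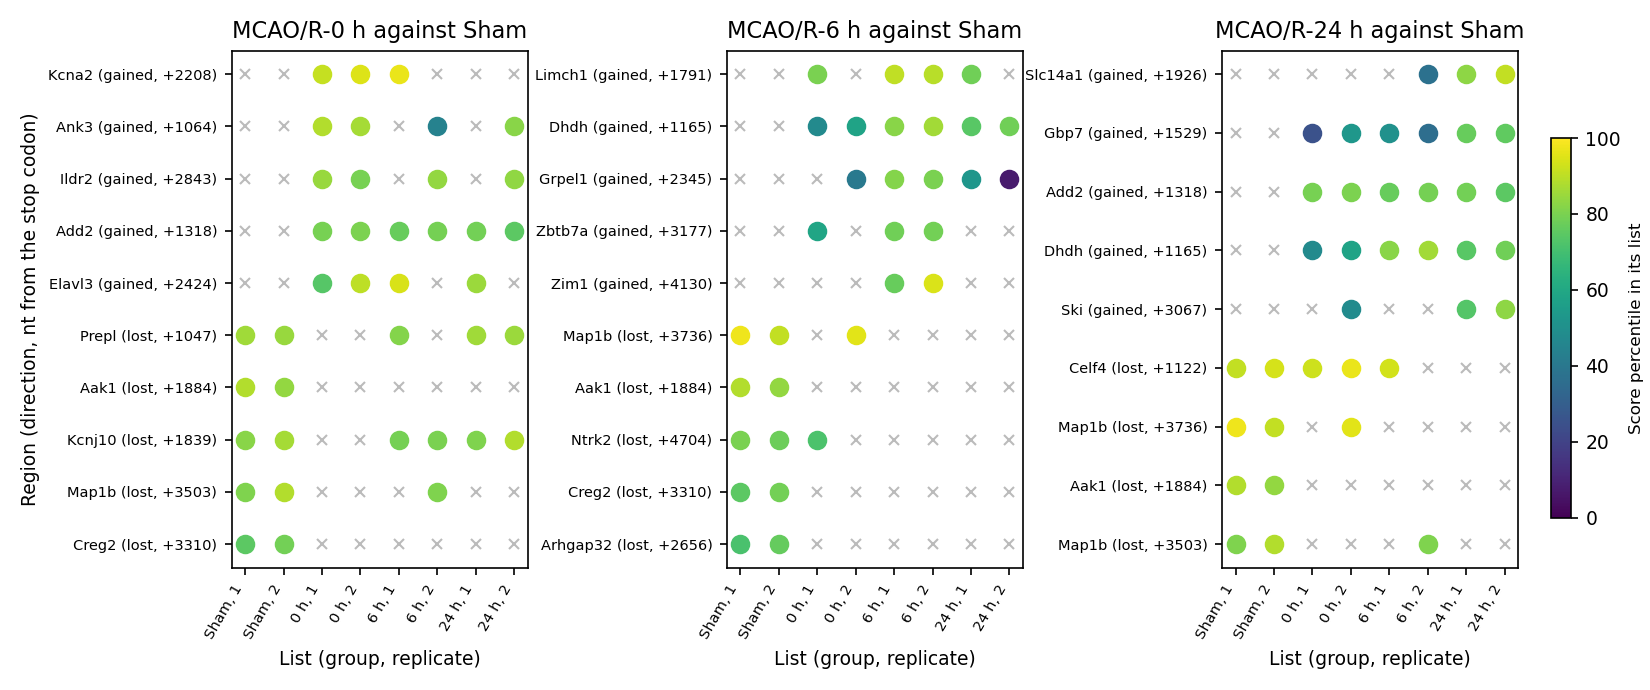
Score percentile (colour) in each of the 8 lists of leading gained and lost distal regions, up to 5 of each at each reperfusion time; crosses mark lists without the region, and the number after each gene is its distance in nt past the stop codon. Add2 and Dhdh are in all 6 reperfusion lists and neither Sham list, and Aak1 and Creg2 are in the 2 Sham lists alone.

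In the 299 distal regions of all 8 lists the ranks themselves were compared, by counting regions where both lists of a time point lay above, or both below, both Sham lists. At 0 h 47 lay above (15.7%, against 22.7% of the 4735 regions of all kinds in all 8 lists) and 39 below (13.0%, against 11%). At 6 h 61 lay above (20.4%, against 26.2%) and 61 below (20.4%, against 13.6%). At 24 h 71 lay above (23.7%, against 25%) and 44 below (14.7%, against 13.3%). The median shift of distal regions was 0.897, 0.296 and 0.983 percentage points at the 3 times, and that of all regions 1.47, 1.59 and 1.42 points. No test was run on these counts, since 2 lists against 2 allow an exact p of at least 0.333.

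A few genes with large shifts are given here, and they were chosen after their values were seen. Trib1, a pseudokinase that scaffolds protein degradation, had a region at 1507 nt at percentiles of 19.4 and 54.1 in Sham, 47.7 and 86.9 at 0 h, 88.5 and 78.9 at 6 h and 80.4 and 93.6 at 24 h. The 6 h and 24 h lists of Trib1 were all above both Sham lists, which themselves lay far apart. Atp2b2, a neuronal calcium pump, had a region at 3441 nt at 73.1 and 79.1 in Sham, 58.0 and 63.1 at 0 h, 70.1 and 59.7 at 6 h and 51.8 and 30.5 at 24 h, so that all 6 reperfusion lists were below both Sham lists. Nav1, a guidance protein that binds microtubules, ranked 60.8 and 60.6 in Sham and 25.2 and 6.06 at 24 h at 1438 nt, with values of 46.3 to 51.3 between. Ptprb, a receptor phosphatase of endothelial cells, ranked 31.9 and 20.8 in Sham and 86.2 and 87.4 at 0 h at 3963 nt, and 42.2 to 64.4 later.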

How the data were processed

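Trimming by the authors used Trim Galore 0.6.7 and alignment to GRCm39 used HISAT2 2.2.1; samtools was then used to drop reads that did not map or mapped more than once. Peaks came from exomePeak2 (p cutoff 0.05, log2 fold change cutoff 0.5; its version is not given in the sources used here). For each IP library the authors deposited a list in which every peak has a score of unstated scale, so only its rank within a list was used. With no counts in the lists, depth is unknown and no counting interval can be given. The 8 input libraries were not analysed here.

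Peaks were placed on GENCODE M39 transcripts (basic protein-coding, without readthrough ones) with Python 3.11.15, numpy 2.4.6 and pandas 2.3.3, and plotted with matplotlib 3.10.9. Placement and measures were tested on simulated peaks of known position. Groups were compared by exact permutation over divisions of the 8 lists, and measures against 0 by exact sign flips. Replicate numbers were not treated as pairs in the main tests. Deviations from the group means correlated weakly, by 0.0336 to 0.0982 over 4735 regions, and positively in each pair of groups. Whether lists with the same replicate number shared a batch was not tested. The members, gene lists and tests were chosen with earlier results of these data known. Genes were named by rank (most recurrent distal regions, highest lowest percentile, farthest from the stop codon, leading 5 gained and 5 lost at each time), or as members of a gene list or genes the study follows; a few genes picked this way are not reported here. Alternatives took equal numbers of peaks, the higher-scoring 50%, other distances, transcripts, windows, motifs and joining, and left out each library in turn.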

Additional observations from a re-analysis of the deposited data

How the results depend on the processing

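The directions against 0 of density, score rank and RRACH held under each alternative run, and that of the share at the 3′ end under each but the even placement of whole peaks, added after the data were seen (0.020 in place of -0.47). The other runs of the share at the 3′ end kept the count over all distal positions, which expects too many peaks there. Permuting within replicate numbers (replicate block) changed no call: p among groups was 0.75 for the share of placed peaks, 0.5 for the share of 3′ UTR peaks, 0.625 for density and for the 3′ end, 0.292 for rank and 0.708 for RRACH, and 0.0417 for the excess of shared regions among replicates.

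That excess was 0.00646 with distal from 2000 nt, 0.00781 with joining by 50% of the shorter peak, 0.0120 with distal from 500 nt, 0.0141 with equal numbers of peaks and 0.0205 in the higher-scoring 50%, and 0.00336 to 0.0134 with 1 library left out. Leaving out 1 library gave p among groups of 0.0476 to 0.943 for density and 0.0190 to 0.819 for the 3′ end. The mean share of placed peaks was 14.8% with distal from 500 nt, 3.78% from 2000 nt and 7.64% in the higher-scoring 50%, and the share of 3′ UTR peaks 42.3%, 10.8% and 21.7%. Gained regions at 0 h, 6 h and 24 h numbered 182, 236 and 206 from 500 nt, 43, 59 and 48 from 2000 nt, and 42, 64 and 64 in the higher-scoring 50%. Lost regions at 6 h and 24 h numbered 91 and 117 from 500 nt; at 0 h, 6 h and 24 h they numbered 26, 28 and 36 from 2000 nt, and at 0 h 38 in the higher-scoring 50%. With 1 library left out, which lets 1 list stand for a group, gained regions ran from 112 to 764 at 0 h, 137 to 662 at 6 h and 124 to 728 at 24 h, and lost regions from 58 to 438, 55 to 454 and 75 to 496.

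With 2 lists per group, no exact p under 0.05 was possible for one time point against Sham, and no single region was tested. The peaks carry no counts, so a region missing from a list is only not listed, and no gained or lost region was tested as a change in m6A.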
